A study of Mus musculus with 16 samples.

Results

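The comparison described here is a difference between TAC responses in the mouse heart. It is the change from sham to TAC surgery in mice that had received Cardinal, minus the same change in mice that had received GFP. All 16 of the 16 mice of the series entered it, with 4 in each of 4 groups that are called AAV9-Cardinal sham, AAV9-Cardinal TAC, AAV9-GFP sham and AAV9-GFP TAC. The genotype labels are AAV9-cTNT-CARDINAL and AAV9-cTNT-GFP, which are adeno-associated viruses of serotype 9 that use the cardiac troponin T promoter to express either the mouse long noncoding RNA Cardinal (Gm12295) or green fluorescent protein. Wild-type pups were injected on postnatal day 1, and the methods describe male mice only. TAC (transverse aortic constriction) is a ligation around the transverse aorta that leaves a narrowed lumen, and sham mice had the same operation without the ligation. The apex of the heart was taken 4 weeks after surgery, poly(A) RNA was sequenced from a single end with 50-base reads, and the deposited table holds the reads counted on each gene. Every mouse carried a virus, so no group shows TAC without one, and the promoter restricts the vector's transcript to cardiomyocytes whereas the RNA comes from all cells of the apex. In such bulk samples, fewer cells of a type and less RNA per cell cannot be told apart. The labels name neither litters nor surgery days, and the p-values measure the spread between these mice.

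Pressure overload makes cardiomyocytes grow, and they return to genes of the fetal heart, such as those for natriuretic peptides and skeletal muscle actin. Fibroblasts are activated and lay down collagen and other matrix proteins, while genes for fatty acid oxidation and for the respiratory chain, which supply most of the ATP of the adult heart, decline. Cardinal is a heart-enriched lncRNA that the study connects to ribosomes and to the control of translation, and the question of this comparison is which parts of the pressure overload response were weaker, of equal size or stronger with it.

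The largest gene groups examined were those of the extracellular matrix and of energy metabolism, and in both the median TAC response was nearer to 0 with Cardinal. Genes of the extracellular matrix had a median log2 TAC response of 0.67 in AAV9-GFP and of 0.36 in AAV9-Cardinal hearts, and genes of energy metabolism had median responses of -0.27 and -0.066. Acta1 and Nppa had smaller responses as well, whereas Nppb and most other hypertrophic genes had intervals that included 0. Single genes, however, almost never passed a test across the genome. Of the 16857 genes with enough reads, 2 passed an adjusted p of 0.05 for the difference in the quasi-likelihood test of edgeR (0.0119%). These were Bub1b and Gm15459, and the counts of Gm15459 and the size of the difference in Bub1b are uncertain, as described at the end. At an unadjusted p under 0.05 the difference was below 0 for 878 genes (5.21%) and above 0 for 844 genes (5.01%), and its median over all tested genes was -0.00071. DESeq2, which was run as an alternative and returned an adjusted p for 2803 genes, called 16 below 0 (0.571%) and 117 above 0 (4.17%). An edgeR adjusted p is therefore not repeated for each gene below. Apart from Bub1b and Gm15459, it was at least 0.17 with all 16 mice for every gene named here, and the text gives differences with their 95% intervals and the DESeq2 call where there was one.

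To describe programs, genes were first selected by the TAC effect averaged over both vectors. This average effect comes from the same fit and the same mice as the difference, and it is sure to be uncorrelated with it only where the groups have equal spread. This effect passed an adjusted p under 0.05 upward in 1905 genes (11.3%) and downward in 1983 genes (11.8%). Each of these 3888 genes was then placed in a class by the unadjusted 95% interval of its difference. A response was called smaller where the interval excluded 0 against the direction of TAC, kept where the interval included 0 and stayed within a 1.5-fold difference, larger where it excluded 0 in the direction of TAC, and undetermined otherwise. Smaller responses numbered 657 (16.9%), kept responses 2042 (52.5%), larger responses 60 (1.54%) and undetermined responses 1129 (29.0%). Among genes that TAC raised, the median response was 0.39 in AAV9-GFP and 0.29 in AAV9-Cardinal hearts, and among genes that it lowered the medians were -0.35 and -0.26. Most kept genes were weak responders, with 956 raised and 950 lowered by an average TAC effect under 0.5 on the log2 scale. That is within the 1.5-fold limit, so for them kept bounds the difference and does not show a preserved response. None of the 115 genes that TAC lowered by at least 1 on the log2 scale, or of the 115 and 49 that it raised by 1 to 2 and by 2 or more, had an interval narrow enough to be kept.

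**Figure D1:**
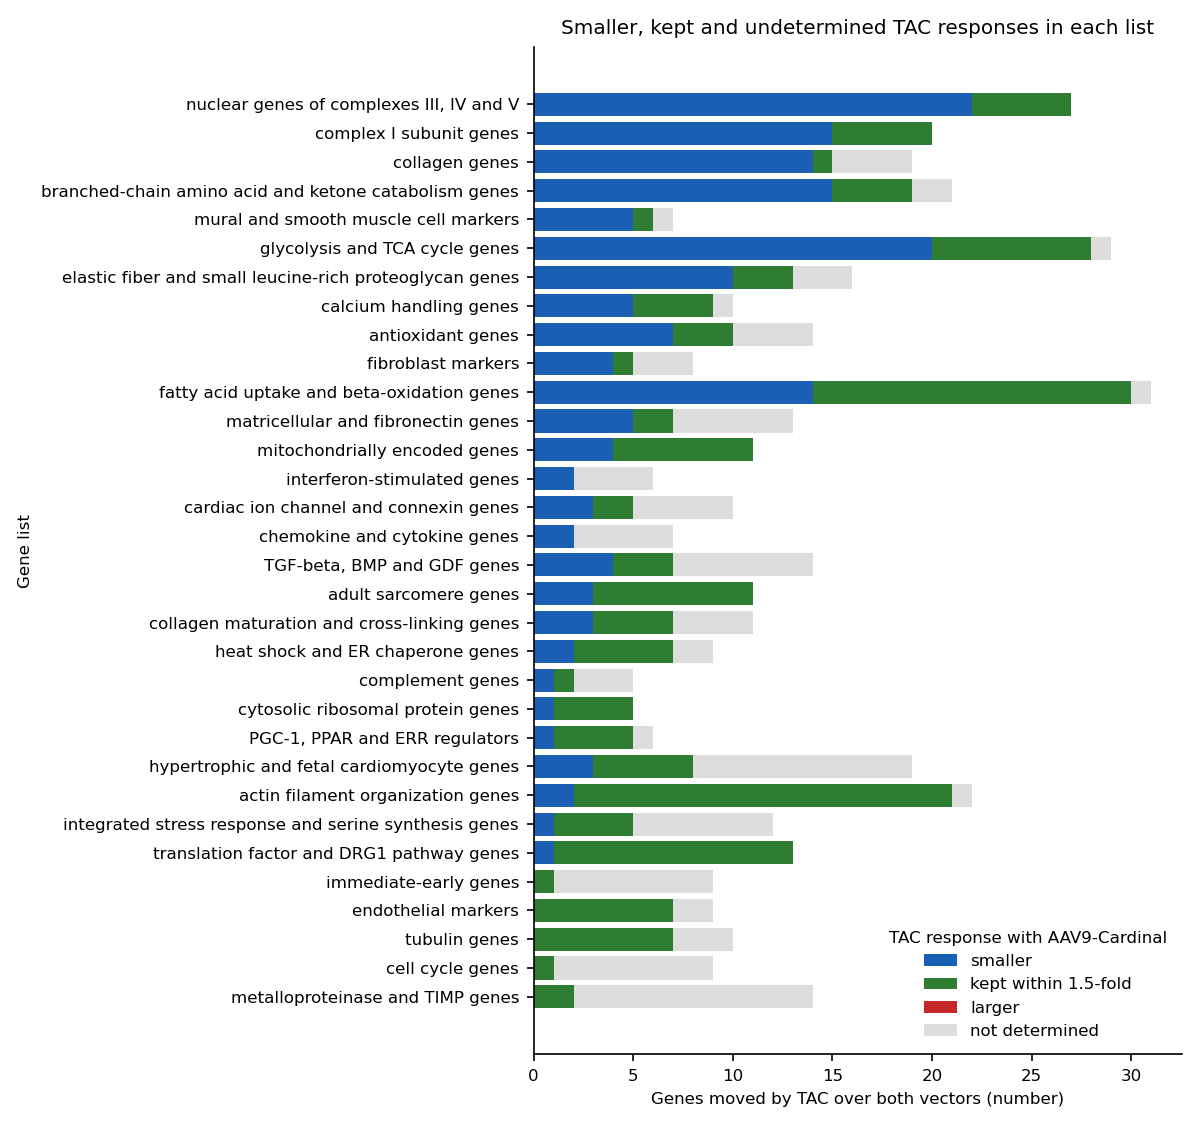
Each bar is 1 of the 32 gene lists that held at least 5 genes moved by TAC, and the colored parts give the number of those moved genes whose TAC response was smaller, kept within 1.5-fold, larger or undetermined with AAV9-Cardinal. Smaller responses made up 81.5% of the moved genes for complexes III, IV and V and 73.7% of the collagen genes, and no list held a larger response.

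AAV9-Cardinal TAC replicate 1 stood apart from its group, and it bears on every comparison that follows. Its mean log2 CPM over the collagen list (CPM, counts scaled to a fixed library size) was 4.95, whereas the other 3 mice of the group lay between 4.26 and 4.43 and the AAV9-GFP TAC mice between 4.91 and 5.15. The same mouse had the most Cardinal, with 93.9 CPM against 18.3 to 20.6 CPM in the other 3. It was kept in all values unless they are given without it. When it was left out, 79 of 17075 tested genes passed the adjusted p, 43 below 0 and 36 above 0. Of these 79 genes, 78 had the same direction and 73 an unadjusted p under 0.05 with all 16 mice. Both fits share the other mice, so this agreement is no separate support, and replicate 1 was singled out by its values in these data. Totals lay between 16441997 and 21904589 counts per mouse, so that 3 counts, the smallest amount taken as detected, correspond to 0.126 to 0.195 CPM for counting error. Genes that define ventricular muscle were abundant in every mouse, such as Myh6, the adult myosin heavy chain, with 13308 to 21225 CPM.

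**Figure D2:**
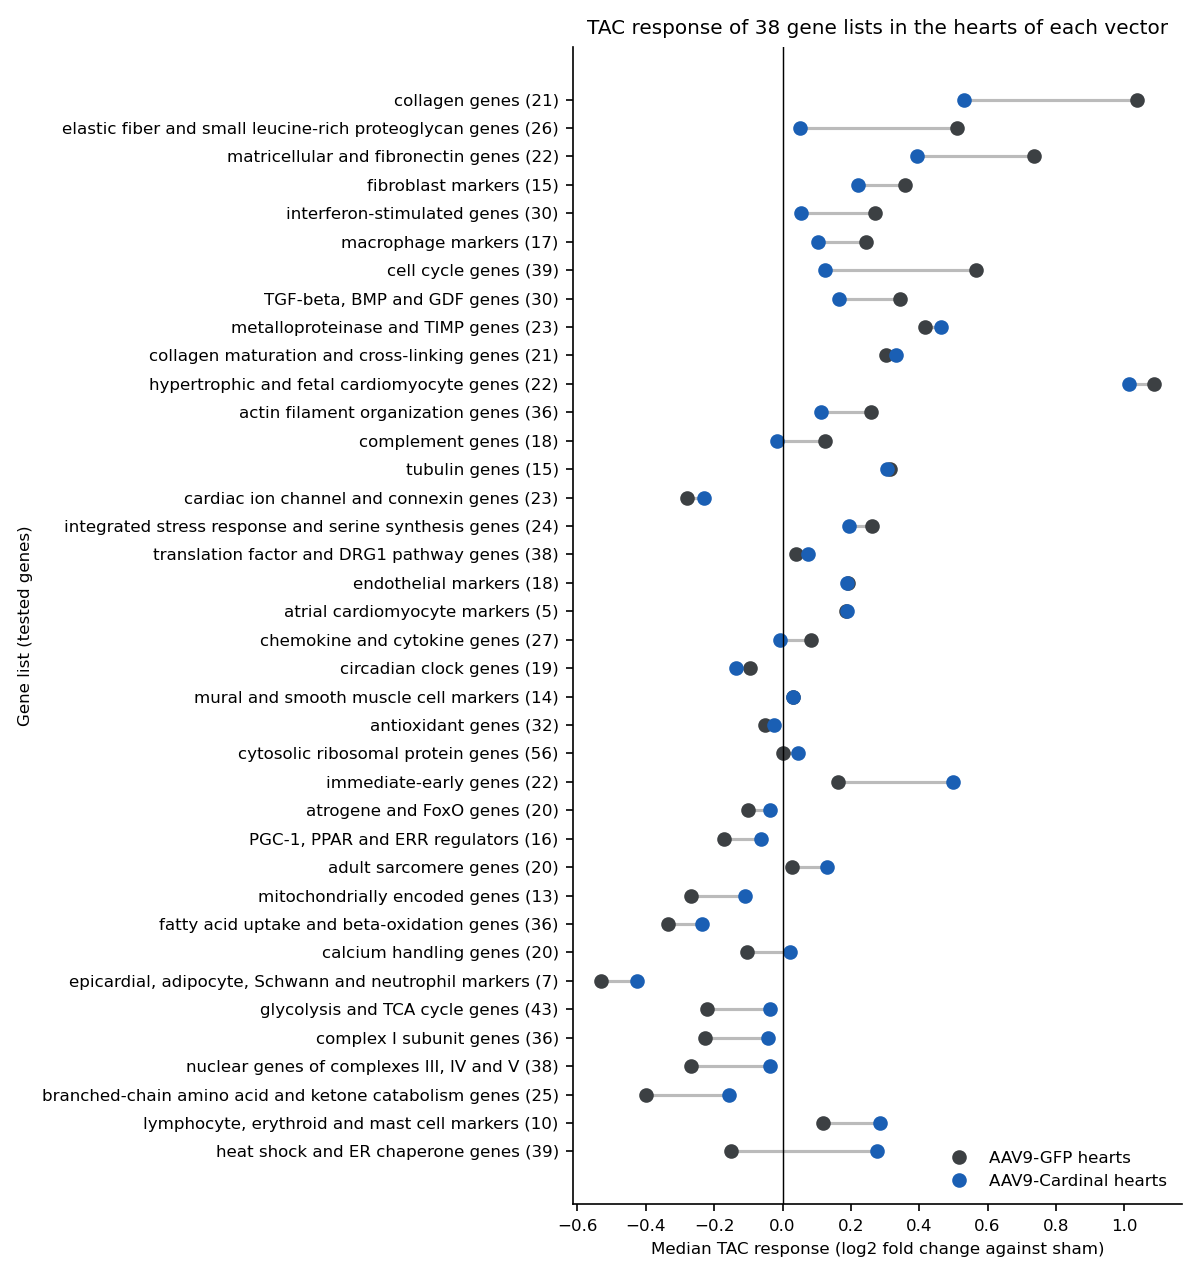
Each row is a gene list, with the median log2 TAC response of its tested genes in AAV9-GFP hearts and in AAV9-Cardinal hearts on the horizontal axis. The median of the collagen genes was 1.04 with AAV9-GFP and 0.53 with AAV9-Cardinal, that of the genes for complexes III, IV and V -0.27 and -0.036, and that of the endothelial markers 0.19 with both.

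Among hypertrophic and fetal genes the difference was concentrated in a few members. All 22 genes of this list were tested, and TAC raised 19 of them and lowered none. The response was smaller with AAV9-Cardinal for 3, kept for 5, larger for none and undetermined for 11, and the median difference was -0.12. At an unadjusted p under 0.05 there were 3 below 0 and none above. The mean log2 CPM over the list lay between 7.06 and 7.47 in AAV9-GFP TAC and between 6.50 and 6.96 in AAV9-Cardinal TAC mice, which did not overlap. The promoters of 3 of these genes are shown because their responses diverged. They are the 250 bases before the start of transcription in RefSeq on GRCm38.p6, with capitals for matches, on either strand, to the CArG box (an A- and T-rich stretch between CC and GG), the site of serum response factor, and to CATTCC, the site of TEAD factors.
Acta1, chr8:123894776-123895025, minus strand: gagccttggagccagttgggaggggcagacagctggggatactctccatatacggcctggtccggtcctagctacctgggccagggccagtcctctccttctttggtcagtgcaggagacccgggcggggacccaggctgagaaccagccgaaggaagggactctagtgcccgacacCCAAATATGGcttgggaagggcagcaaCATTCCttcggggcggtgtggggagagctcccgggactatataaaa
Nppa, chr4:148000472-148000721, plus strand: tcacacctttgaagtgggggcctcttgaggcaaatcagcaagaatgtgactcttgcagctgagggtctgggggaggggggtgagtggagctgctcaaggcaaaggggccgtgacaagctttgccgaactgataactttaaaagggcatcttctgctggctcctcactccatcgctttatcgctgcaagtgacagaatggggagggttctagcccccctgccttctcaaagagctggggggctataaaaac
Nppb, chr4:147985650-147985899, plus strand: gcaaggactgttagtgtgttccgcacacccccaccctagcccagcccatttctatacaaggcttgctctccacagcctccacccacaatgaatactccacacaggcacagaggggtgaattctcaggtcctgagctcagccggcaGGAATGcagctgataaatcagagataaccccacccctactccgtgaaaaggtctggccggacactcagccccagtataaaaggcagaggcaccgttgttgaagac
The Acta1 window holds 1 CArG box and 1 CATTCC, the Nppb window holds 1 CATTCC on the other strand (GGAATG), and the Nppa window holds neither. Of the 27025 genes with promoters of this length, 1.62% hold a CArG box and 14.4% hold CATTCC in at least 1 of them. The shares were 2 and 7 of 21 in the hypertrophic list. They were 4 and 6 of 16 in the adult sarcomere list, whose differences were mostly above 0. A match describes the letters of the window and nothing about binding.

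Acta1 encodes the skeletal muscle form of alpha actin, which is made in the fetal heart and again under load. In sham hearts it reached 101, 153, 102 and 144 CPM with AAV9-GFP and 144, 92.7, 112 and 123 CPM with AAV9-Cardinal. After TAC it reached 2280.3, 2785, 2049 and 2183 CPM with AAV9-GFP and 1359, 687, 571 and 815 CPM with AAV9-Cardinal. The sham groups overlapped, whereas every AAV9-Cardinal TAC mouse was below every AAV9-GFP TAC mouse, and replicate 1 was the highest of the former. The log2 response was 4.22 (standard error 0.23) with AAV9-GFP and 2.86 (0.23) with AAV9-Cardinal, a difference of -1.35 (95% interval -2.04 to -0.67), which DESeq2 called (adjusted p = 0.025). In an exact two-sided permutation test, which exchanges the vector labels within the sham and within the TAC mice, the p was 0.026. Leaving out single mice gave differences from -1.67 to -1.20.

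Nppa encodes atrial natriuretic peptide, a hormone that ventricular muscle releases under load. After TAC it reached 434, 1396, 431 and 675 CPM with AAV9-GFP and 399, 213, 183 and 241 CPM with AAV9-Cardinal, from sham ranges of 41.6 to 96.0 and 44.2 to 106 CPM. The TAC groups did not overlap, but their nearest mice, at 431 and 399 CPM, lay close together. The responses were 3.58 and 1.92, a difference of -1.66 (95% interval -2.85 to -0.46, exact two-sided permutation p = 0.031), and DESeq2 did not call it (adjusted p = 0.13). An antisense transcript, Gm13054, shares 53.4% of the 50-base stretches of Nppa, and the use of strand in counting is not stated, so that reads from both cannot be told apart.

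Nppb, which encodes the related B-type natriuretic peptide and lies beside Nppa on chromosome 4, gave another picture. Its TAC values were 174, 394, 221 and 377 CPM with AAV9-GFP and 223, 145, 178 and 268 CPM with AAV9-Cardinal. In sham mice they were 27.0, 68.7, 59.4 and 145 CPM and 49.5, 25.5, 65.7 and 67.7 CPM. Both TAC groups lay above the sham mice of their vector and overlapped each other. The responses were 1.96 and 1.97, and the difference of 0.012 had a 95% interval of -1.25 to 1.27, which leaves room for a change of more than 2-fold either way (exact two-sided permutation p = 0.90).

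The kept members of the list included Nrap and Uchl1. Nrap encodes a scaffold protein of growing myofibrils, and its response was 0.70 in AAV9-GFP and 0.54 in AAV9-Cardinal hearts (95% interval of the difference -0.42 to 0.12). Uchl1 encodes a ubiquitin hydrolase, and its response was 0.65 in AAV9-GFP and 0.66 in AAV9-Cardinal hearts (95% interval -0.32 to 0.34). TAC raised both genes on average, and the data bounded the difference between the vectors within 1.5-fold. Myh7, the fetal myosin heavy chain, was chosen after its values were seen. It lay between 2993 and 3786 CPM in every mouse of every group, and its difference was -0.060 (95% interval -0.24 to 0.12). Other genes share 20.0% of its 50-base stretches, among them the antisense transcript Mhrt, whose reads cannot be told apart from its own where strand was not used.

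**Figure D3:**
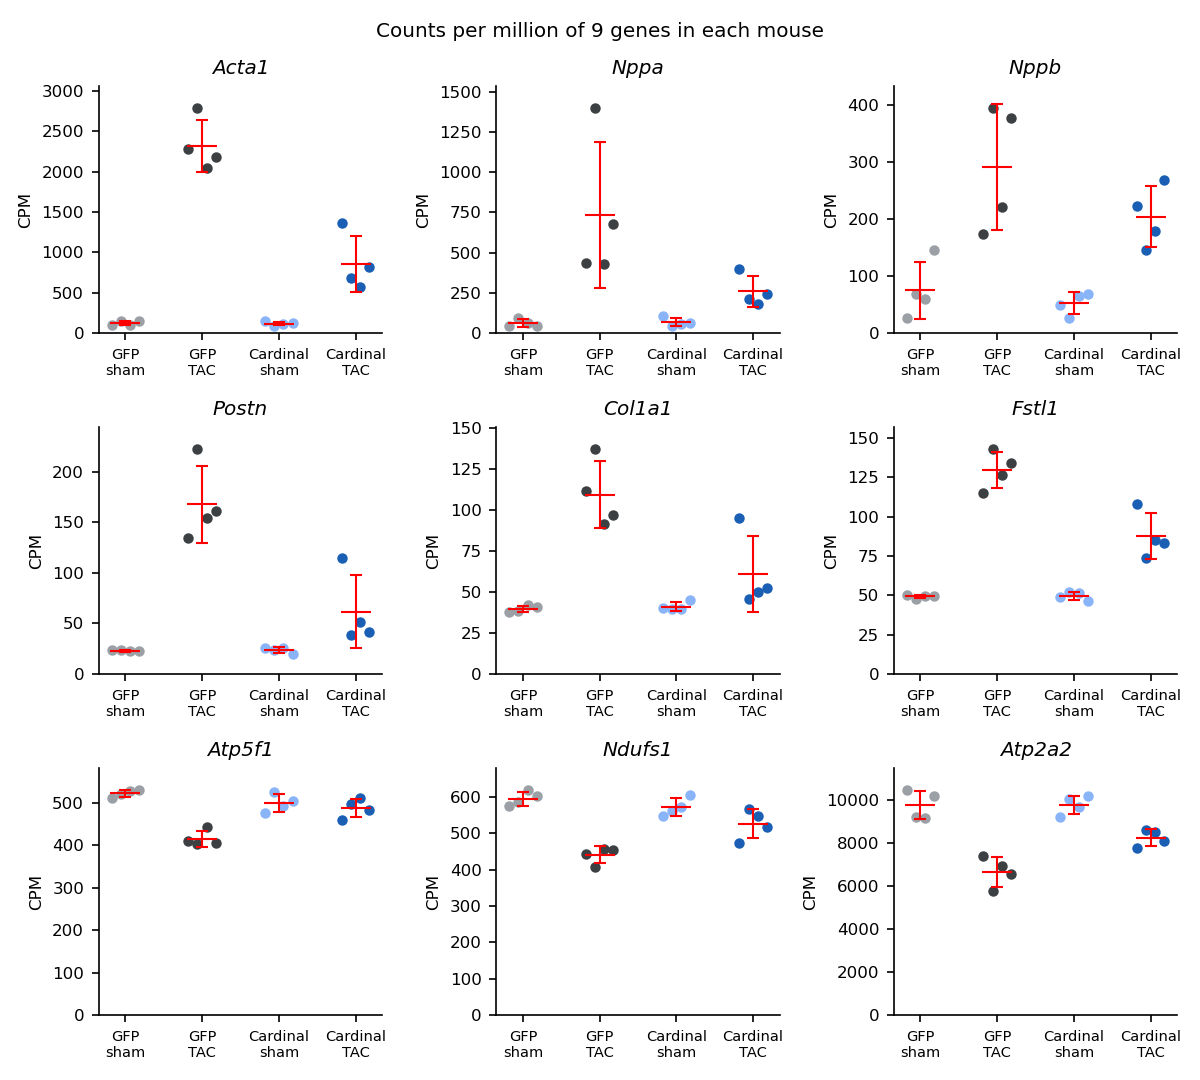
Each panel shows 1 gene, with its CPM in each of the 16 mice on a linear axis by group, and red bars give the group mean and SD. Acta1 and Nppa were lower in all 4 AAV9-Cardinal TAC mice than in all 4 AAV9-GFP TAC mice, Nppb overlapped, and AAV9-Cardinal TAC replicate 1 lay near the AAV9-GFP TAC mice for Postn (115 CPM) and Col1a1 (95.5 CPM).

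Most extracellular matrix genes had a difference below 0. The 5 matrix lists (collagens, collagen maturation, matricellular proteins, elastic fibers with small leucine-rich proteoglycans, and metalloproteinases) held 112 tested genes, of which 88 had a difference below 0 and 24 above 0. At an unadjusted p under 0.05 there were 35 below and 5 above, or 31.2% and 4.46% of them, beside 5.21% and 5.01% of all tested genes. Their median difference was -0.35, and it was -0.42 without AAV9-Cardinal TAC replicate 1, when 52 genes were below and 5 above at that p. Without AAV9-Cardinal TAC replicate 4, in contrast, the 35 genes below became 23. Of the 72 that TAC moved, 32 had a smaller response, 12 a kept response, none a larger response and 28 were undetermined. The smaller responses differed by 0.30 to 1.59 on the log2 scale, with a median of 0.64. DESeq2 called 5 of the 34 members it tested below 0 and none above.

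Collagens were the most numerous among the smaller matrix responses. Of 21 tested collagen genes, 20 had a difference below 0, 13 with an unadjusted p under 0.05, and the median response was 1.04 with AAV9-GFP and 0.53 in AAV9-Cardinal hearts. Among the 19 that TAC moved, 14 responses were smaller, 1 was kept and 4 were undetermined. Col1a1, a chain of the main fibrillar collagen of scar, reached 112, 137, 91.7 and 97.0 CPM in AAV9-GFP TAC mice and 95.5, 46.0, 49.9 and 52.4 CPM in AAV9-Cardinal TAC mice, with all sham mice between 37.6 and 45.3 CPM. Only AAV9-Cardinal TAC replicate 1 fell within the AAV9-GFP range, and the other 3 mice lay just above sham. Its responses were 1.46 and 0.57, and the difference of -0.89 (95% interval -1.45 to -0.33, DESeq2 adjusted p = 0.029) became -1.19 without that mouse. Col15a1, a collagen of the basement membrane zone, lay at 39.9 to 56.8 CPM in sham and 92.5 to 131 CPM in TAC mice with AAV9-GFP and at 41.1 to 49.6 and 51.8 to 83.5 CPM with AAV9-Cardinal, a difference of -0.66 (95% interval -1.08 to -0.25, DESeq2 adjusted p = 0.038), and Col4a3, a chain of collagen IV, had a difference of -0.70 (-1.12 to -0.29). Col6a3, which encodes a chain of the microfibrillar collagen VI, was the collagen with a kept response, which was 1.00 in AAV9-GFP and 0.93 in AAV9-Cardinal hearts (95% interval of the difference -0.56 to 0.42).

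Matricellular genes, whose products sit in the matrix and signal to cells, had median responses of 0.74 with AAV9-GFP and 0.39 with AAV9-Cardinal. Of 22 tested genes, 20 had a difference below 0, 6 of them at an unadjusted p under 0.05 and none above 0 at that p. Postn encodes periostin, a marker of activated fibroblasts. Its TAC values were 134, 222, 154 and 161 CPM with AAV9-GFP and 115, 38.2, 51.2 and 41.5 CPM with AAV9-Cardinal, and all 8 sham mice lay between 20.1 and 26.0 CPM. The TAC groups did not overlap, and replicate 1 was more than 2-fold above the rest of its group. The responses were 2.86 and 1.37, a difference of -1.49 (95% interval -2.32 to -0.66, DESeq2 adjusted p = 0.028), and it was -1.99 without replicate 1. Cilp, a matrix protein that cardiac fibroblasts make under stress, had a similar pattern with 25.2, 51.4, 30.9 and 33.2 CPM against 23.1, 6.81, 7.26 and 8.15 CPM after TAC and a difference of -1.59 (95% interval -2.74 to -0.44). Fn1, which encodes fibronectin, reached 55.8, 73.0, 60.3 and 57.6 CPM with AAV9-GFP and 56.6, 41.3, 41.5 and 38.8 CPM with AAV9-Cardinal. Sham mice lay between 32.7 and 42.4 CPM, so 3 of the 4 AAV9-Cardinal TAC mice were still within the sham range. The difference in Fn1 was -0.47 (95% interval -0.83 to -0.11, exact two-sided permutation p = 0.052, DESeq2 adjusted p = 0.11). Thbs2, which encodes thrombospondin 2, had a negative and kept response of -0.87 in AAV9-GFP and -0.90 in AAV9-Cardinal hearts (95% interval of the difference -0.52 to 0.46).

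Elastic fiber and small leucine-rich proteoglycan genes had median responses of 0.51 and 0.052. Of 26 tested, 12 had a difference below 0 and 2 above 0 at an unadjusted p under 0.05, and of 16 moved by TAC, 10 responses were smaller and 3 were kept. The 12 genes below became 6 without AAV9-Cardinal TAC replicate 4 and 7 without replicate 5 or 6 of that group or AAV9-GFP TAC replicate 3. Fbn1, which encodes fibrillin-1, the backbone of microfibrils, reached 86.5, 100.4, 61.4 and 79.7 CPM with AAV9-GFP and 72.4, 34.0, 35.7 and 41.7 CPM with AAV9-Cardinal after TAC, and 29.1 to 34.1 CPM in sham mice. The difference of -0.89 (95% interval -1.48 to -0.30, exact two-sided permutation p = 0.030, DESeq2 adjusted p = 0.038) was -1.20 without replicate 1, the 1 mouse within the AAV9-GFP range. Another gene, Gm9913, shares 19.7% of the 50-base stretches of Fbn1. Ltbp4, which tethers latent TGF-beta to the matrix, differed by -0.31 (-0.51 to -0.11, DESeq2 adjusted p = 0.044). Efemp1, which encodes a fibulin, went the other way, because TAC lowered it to 3.23 to 5.26 CPM with AAV9-GFP and to 5.91 to 7.18 CPM with AAV9-Cardinal, from 7.59 to 12.0 CPM in sham mice. Its difference was 0.74 (0.31 to 1.17), again a smaller response. Aspn, which encodes the proteoglycan asporin, was kept with responses of 0.74 in AAV9-GFP and 0.77 in AAV9-Cardinal hearts (95% interval of the difference -0.44 to 0.50).

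Enzymes that mature or cut collagen were tested in a pair of lists. Of 21 tested collagen maturation genes, 3 had a difference below 0 and 1 above 0 at an unadjusted p under 0.05, and of the 11 moved ones 3 were smaller, 4 kept and 4 undetermined. The smaller ones included the cross-linking enzymes Loxl1 (difference -0.71, 95% interval -1.14 to -0.28) and Loxl2 (-0.73, -1.30 to -0.15, exact two-sided permutation p = 0.076, with 45.0% of its stretches shared with other genes). For Loxl1 the TAC values were 30.6 to 43.2 CPM with AAV9-GFP and 17.7 to 27.9 CPM with AAV9-Cardinal, which did not overlap. Metalloproteinases and their inhibitors gave 1 gene below and 1 above at that p among 23, and 12 of 14 moved genes were undetermined, so the list was not resolved at this spread. Its median difference of -0.19 became 0.019 without AAV9-Cardinal sham replicate 3.

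Ligands and inhibitors of the TGF-beta family had a median difference of -0.22. Of 30 tested genes, 5 were below and 1 above 0 at an unadjusted p under 0.05 (3 below without AAV9-Cardinal TAC replicate 4, AAV9-GFP sham replicate 1 or AAV9-GFP TAC replicate 3), and of 14 moved, 4 were smaller, 3 kept and 7 undetermined. Fstl1 encodes a secreted follistatin-like protein. It lay at 47.8 to 50.3 CPM in AAV9-GFP sham and at 46.3 to 52.2 CPM in AAV9-Cardinal sham mice. After TAC it rose to 115, 143, 126 and 134 CPM with AAV9-GFP and to 108, 74.0, 85.4 and 83.2 CPM with AAV9-Cardinal. The TAC groups did not overlap, and the difference was -0.57 (95% interval -0.86 to -0.29, DESeq2 adjusted p = 0.015). Frzb, a secreted Wnt antagonist, differed by -0.82 (-1.28 to -0.35), with 6.08 to 8.43 CPM against 3.43 to 4.33 CPM after TAC.

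Markers of cell types moved with these genes in part, and their part in the matrix result was not tested. The 15 fibroblast markers summed to 1164 to 1506 CPM in AAV9-GFP TAC and 1016 to 1306 CPM in AAV9-Cardinal TAC mice, and to 1077 to 1239 CPM over both sham groups. Of these markers, 4 had a difference below 0 at an unadjusted p under 0.05 (Col1a1, Cilp, Meox1 and Mfap5, the last pair chosen after their values were seen), and none above 0. The list shares matrix genes with the lists above, and the median difference over it was -0.29, or -0.074 without AAV9-GFP TAC replicate 3. Macrophage markers summed to 254 to 318 CPM in AAV9-GFP TAC and 230 to 303 CPM in AAV9-Cardinal TAC mice, with 1 of 17 below 0 at that p, the chemokine receptor gene Cx3cr1 (difference -1.54, 95% interval -2.80 to -0.28, at 0.24 to 2.74 CPM in all mice). Cd68, a lysosomal protein of macrophages, differed by -0.69 (-1.39 to 0.0086), and AAV9-Cardinal TAC replicate 1 had 9.73 CPM of it against 3.99 to 4.84 CPM in the rest of its group. Without this mouse the difference in Cd68 was -1.07 (edgeR adjusted p = 0.042), but its Cd68 value itself sets it apart, so that fit is no separate support.

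**Figure D4:**
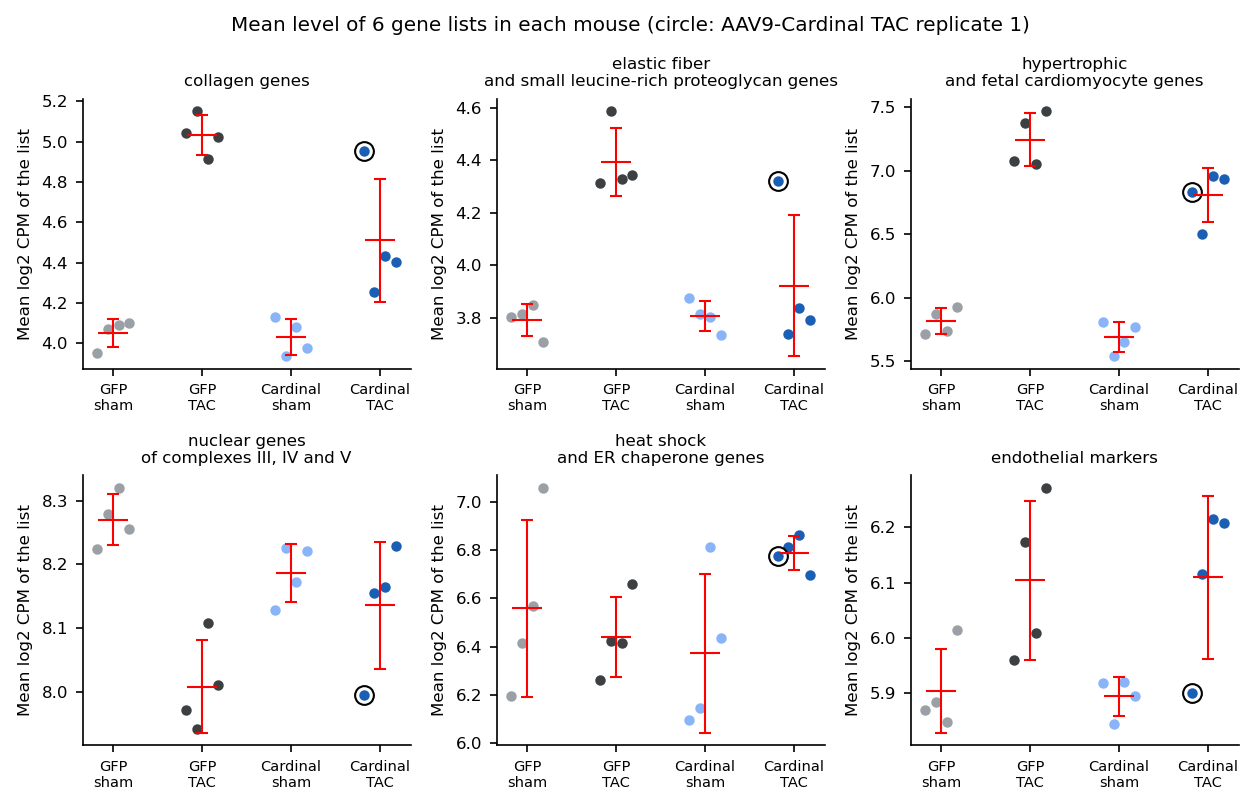
Each panel shows 1 gene list, with the mean log2 CPM of its tested genes in each of the 16 mice by group, red bars for the group mean and SD, and a circle around AAV9-Cardinal TAC replicate 1. For the collagen genes the circled mouse lay at 4.95, with the other AAV9-Cardinal TAC mice at 4.26 to 4.43 and the AAV9-GFP TAC mice at 4.91 to 5.15.

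Most genes of energy metabolism had a small difference above 0. Over 5 lists (fatty acid oxidation, glycolysis with the TCA cycle, catabolism of branched-chain amino acids and ketones, complex I, and the nuclear genes of complexes III, IV and V), 162 of 178 tested genes had a difference above 0 and 16 below 0. At an unadjusted p under 0.05 there were 98 above and 1 below (55.1% and 0.562%, beside 5.01% and 5.21% of all tested genes), and DESeq2 called 35 of the 163 members it tested, all above 0. TAC lowered 120 of these genes and raised 8, and 86 of the 128 had a smaller response, 38 a kept response, none a larger response and 4 were undetermined. All 86 smaller responses differed by less than 1.5-fold, from 0.16 to 0.43 on the log2 scale with a median of 0.25. Without AAV9-Cardinal TAC replicate 1 the median difference over the 178 genes moved from 0.20 to 0.24, and 120 were above and 1 below at the unadjusted p. List by list in the order above, 14 of 36, 22 of 43, 17 of 25, 19 of 36 and 26 of 38 genes were above 0 at that p. The 17 for branched-chain amino acids became 7 without AAV9-Cardinal TAC replicate 4 and 10 without AAV9-GFP sham replicate 3 or AAV9-GFP TAC replicate 3, and the 19 of complex I became 12 without AAV9-Cardinal TAC replicate 6 or AAV9-GFP TAC replicate 3.

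Respiratory chain genes were nearly all on 1 side. All 36 tested complex I genes had a difference above 0, from 0.065 to 0.31, and 36 of the 38 nuclear genes of complexes III, IV and V did. Mean log2 CPM of AAV9-Cardinal minus AAV9-GFP mice was -0.074 in sham and 0.12 in TAC mice for complex I. It was -0.083 and 0.13 for complexes III, IV and V, and -0.032 and 0.14 for the 5 energy lists together. Part of these differences in response thus lay in the sham mice. Atp5f1 encodes a stalk subunit of ATP synthase. Its sham values were 511, 521, 528 and 529 CPM with AAV9-GFP and 476, 526, 492 and 505 CPM with AAV9-Cardinal, and its TAC values were 409, 403, 443 and 406 CPM and 460.3, 496, 510.3 and 484 CPM. With AAV9-GFP every TAC mouse was below every sham mouse, whereas with AAV9-Cardinal the ranges overlapped. The responses were -0.33 (standard error 0.044) and -0.035 (0.044), a difference of 0.30 (95% interval 0.16 to 0.43, DESeq2 adjusted p = 0.0025). In complex I, Ndufs1, its largest iron-sulfur subunit, reached 444, 407, 458 and 455 CPM with AAV9-GFP and 475, 567, 548 and 516 CPM with AAV9-Cardinal after TAC, and 547 to 618 CPM in sham mice. The TAC groups did not overlap, and replicate 1 was again the AAV9-Cardinal mouse nearest to the AAV9-GFP mice. The difference was 0.31 (0.14 to 0.48, DESeq2 adjusted p = 0.025). Atp5h, another ATP synthase subunit, differed by 0.31, with DESeq2 adjusted p = 0.026.

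The 13 genes encoded in mitochondrial DNA moved the same way, all with a difference above 0 (0.024 to 0.26). At an unadjusted p under 0.05 there were 5 (3 without AAV9-Cardinal sham replicate 1 or 2), and of 11 that TAC lowered, 4 responses were smaller and 7 were kept. The mt-Co3 gene, for a subunit of complex IV, lay at 18907 to 21115 CPM in sham and 16745 to 17529 CPM in TAC mice with AAV9-GFP and at 18659.8 to 19673 and 18597 to 19610.4 CPM with AAV9-Cardinal, a difference of 0.20 (95% interval 0.084 to 0.31, DESeq2 adjusted p = 0.025), and mt-Co2 differed by 0.25 (0.092 to 0.41). Nearly all 50-base stretches of these genes also lie in nuclear copies, 99.9% for mt-Co3 and all for mt-Co2, so their counts depend on how such reads were assigned. With an offset for GC content the median difference of this list fell from 0.14 to 0.071. Vdac3, a channel of the outer mitochondrial membrane that is in none of the lists, differed by 0.22 (0.11 to 0.32, DESeq2 adjusted p = 0.0060).

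In fuel oxidation, the named genes were lowered by TAC with AAV9-GFP and less so with AAV9-Cardinal. Acadm, the medium-chain acyl-CoA dehydrogenase, had TAC values of 665, 609, 730.4 and 668 CPM with AAV9-GFP and 716, 890.3, 854 and 841 CPM with AAV9-Cardinal, and 905 to 990 CPM in sham mice. Replicate 1 was the only AAV9-Cardinal TAC mouse within the AAV9-GFP range. The difference was 0.33 (95% interval 0.14 to 0.53, DESeq2 adjusted p = 0.028), and that of Etfb, which passes electrons from these dehydrogenases onward, was 0.34 (0.15 to 0.52, DESeq2 adjusted p = 0.025, with 44.8% of its stretches shared). Mdh1, a cytosolic malate dehydrogenase, had responses of -0.33 in AAV9-GFP and -0.072 in AAV9-Cardinal hearts (DESeq2 adjusted p = 0.025). Eno3, the muscle enolase of glycolysis, had responses of -0.30 in AAV9-GFP and -0.0059 in AAV9-Cardinal hearts (DESeq2 adjusted p = 0.025). In the catabolism of leucine, Mccc1 lay at 85.9 to 96.8 CPM in sham and 56.7 to 65.2 CPM in TAC mice with AAV9-GFP, and at 82.9 to 91.3 and 68.4 to 81.5 CPM with AAV9-Cardinal. The difference of 0.36 (0.16 to 0.55) had a DESeq2 adjusted p of 0.025, and Acat1, a thiolase of ketone and isoleucine breakdown, had 0.26 and 0.029.

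Some metabolic genes had a kept response. Slc27a1, a fatty acid transporter, had responses of -0.87 in AAV9-GFP and -0.73 in AAV9-Cardinal hearts (95% interval of the difference -0.22 to 0.51). Acot1, a cytosolic acyl-CoA thioesterase, gave -0.69 in AAV9-GFP and -0.74 in AAV9-Cardinal hearts (-0.44 to 0.35, with 19.2% of its stretches shared). Bdh1, which begins the oxidation of the ketone body beta-hydroxybutyrate, gave 0.56 in AAV9-GFP and 0.55 in AAV9-Cardinal hearts (-0.43 to 0.41). For these 3 genes the data bounded the difference within 1.5-fold. Among the PGC-1, PPAR and ERR regulators, 13 of 16 had a difference above 0 and 1 did so at an unadjusted p under 0.05. This was Klf15, a transcription factor of cardiac lipid metabolism, with 27.5, 20.9, 35.8 and 25.7 CPM in AAV9-GFP TAC and 32.8, 48.5, 40.2 and 29.7 CPM in AAV9-Cardinal TAC mice, which overlapped (difference 0.45, 95% interval 0.0031 to 0.90, exact two-sided permutation p = 0.10).

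Most adult sarcomere and calcium handling genes had a difference above 0, as in energy metabolism, but TAC raised some of them and lowered others. Of 20 sarcomere genes, 19 had a difference above 0, 4 of them at an unadjusted p under 0.05. The median response of the list was 0.026 with AAV9-GFP and 0.13 with AAV9-Cardinal. TAC raised 7 and lowered 4 of the 11 moved genes, and of these 11 responses 3 were smaller and 8 kept. Tnnt2, cardiac troponin T, whose promoter is also the one in both vectors, reached 4209, 3821, 4098 and 3786 CPM after TAC with AAV9-GFP and 4123, 4919, 4793 and 4822 CPM with AAV9-Cardinal. Sham mice lay between 4607 and 5530.4 CPM, and of the AAV9-Cardinal TAC mice only replicate 1 was outside that range. The difference was 0.32 (95% interval 0.14 to 0.50, DESeq2 adjusted p = 0.025), and that of Tpm1, which encodes tropomyosin, was 0.24 (0.070 to 0.42). In the calcium list, 6 of 20 genes were above 0 at an unadjusted p under 0.05 and none below. TAC raised 4 and lowered 6 of the 10 moved genes, and 5 of these 10 responses were smaller. Atp2a2, the SERCA2 pump that refills the sarcoplasmic reticulum, had a sham range of 9169 to 10437 CPM and TAC values of 7394, 5743, 6930.5 and 6566 CPM with AAV9-GFP, and a sham range of 9212 to 10159.5 CPM and TAC values of 7769, 8597, 8510.3 and 8078 CPM with AAV9-Cardinal. TAC lowered it on average over both vectors, and the TAC groups did not overlap. The difference of 0.30 (0.097 to 0.51) was just short of the DESeq2 threshold (adjusted p = 0.051), whereas that of Hrc, a calcium-binding protein of the same compartment, was called (0.37, DESeq2 adjusted p = 0.025).

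Among cardiac ion channels and connexins few genes differed. Of 23 tested, 2 were below and 1 above 0 at an unadjusted p under 0.05, and the median difference of -0.034 became -0.11 without AAV9-Cardinal TAC replicate 1 and 0.15 without AAV9-GFP TAC replicate 1. Kcne1, an accessory subunit of a delayed rectifier potassium channel, was at 1.70 to 2.89 CPM in AAV9-GFP TAC, 1.11 to 1.63 CPM in AAV9-Cardinal TAC and 0.58 to 1.95 CPM in sham mice, a difference of -1.25 (95% interval -2.19 to -0.31). Kcnd2, a channel of the transient outward current, and Cacnb2, a subunit of the L-type calcium channel, were kept. Their responses were -0.78 in AAV9-GFP and -0.88 in AAV9-Cardinal hearts for Kcnd2, and -0.75 in AAV9-GFP and -0.69 in AAV9-Cardinal hearts for Cacnb2, with 95% intervals of the difference of -0.50 to 0.29 and -0.41 to 0.52.

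Actin filament genes had median responses of 0.26 with AAV9-GFP and 0.11 with AAV9-Cardinal. Their mean log2 CPM after TAC did not overlap, with 5.68 to 5.81 in AAV9-GFP and 5.55 to 5.67 in AAV9-Cardinal mice. Of 36 tested actin filament genes, 5 were below 0 at an unadjusted p under 0.05 and none above, and of 22 moved by TAC, 19 were within the 1.5-fold limit, which is wider than the median response of the list, 2 were smaller and 1 was undetermined. The 5 became 2 without AAV9-Cardinal TAC replicate 4 or AAV9-GFP sham replicate 1, and 3 without AAV9-Cardinal sham replicate 1, AAV9-Cardinal sham replicate 2 or AAV9-GFP sham replicate 3. Pfn1, which encodes profilin-1, an actin monomer binding protein, was at 106 to 127 CPM in AAV9-GFP TAC and 94.9 to 105 CPM in AAV9-Cardinal TAC mice (difference -0.27, 95% interval -0.45 to -0.091). Capg, an actin capping protein that macrophages also make, had responses of 1.17 in AAV9-GFP and 0.50 in AAV9-Cardinal hearts (-1.17 to -0.18). Of 15 tubulin genes, none differed at that p, and 7 of 10 moved responses were kept and 3 undetermined.

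Vessel markers were listed by cell type. Of 18 endothelial markers none differed at an unadjusted p under 0.05, and 7 of 9 moved responses were kept. Erg and Cdh5, which encode a transcription factor and the cadherin of endothelial cells, were kept with differences of -0.26 (95% interval -0.54 to 0.023) and -0.16 (-0.35 to 0.019). The list summed to 1614 to 2062 CPM in AAV9-GFP TAC and 1628 to 2079 CPM in AAV9-Cardinal TAC mice. Among 14 markers of mural and smooth muscle cells, 6 had a difference below 0 and 8 above, with a median of 0.026. At that p 4 were below 0 and 1 above, and 5 of 7 moved responses were smaller. Pdgfrb, a receptor of pericytes that fibroblasts share, was at 62.1, 57.9, 50.3 and 68.0 CPM in AAV9-GFP TAC and 46.7, 48.8, 49.4 and 47.9 CPM in AAV9-Cardinal TAC mice, against 37.4 to 48.6 CPM in sham mice. The TAC groups did not overlap (difference -0.43, 95% interval -0.72 to -0.14, DESeq2 adjusted p = 0.050). Notch3, a receptor of mural cells, had responses of 0.27 in AAV9-GFP and -0.010 in AAV9-Cardinal hearts (-0.47 to -0.091), and the summed list did not overlap after TAC, with 2635 to 2778 CPM for AAV9-GFP and 2377 to 2542 CPM for AAV9-Cardinal.

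Inflammation gave few differences. Among 27 chemokine and cytokine genes, 1 was below and 2 above 0 at an unadjusted p under 0.05. TAC lowered both of the latter, with smaller responses in AAV9-Cardinal hearts. They were Il15, a cytokine of natural killer cells, with 12.0, 8.22, 12.6 and 10.9 CPM in AAV9-GFP TAC and 19.0, 19.4, 13.9 and 15.7 CPM in AAV9-Cardinal TAC mice (difference 0.69, 95% interval 0.27 to 1.11), and Ccl11, a chemokine of eosinophils, with 1.33, 0.713, 1.36 and 1.35 CPM and 1.46, 2.26, 2.37 and 1.47 CPM (0.82, 0.24 to 1.40). Of 18 complement genes 1 was called by DESeq2, Cd59a, an inhibitor of the membrane attack complex, whose responses were -0.59 in AAV9-GFP and -0.067 in AAV9-Cardinal hearts (difference 0.52, DESeq2 adjusted p = 0.022). Interferon-stimulated genes had a difference below 0 in 27 of 30, but for 4 at an unadjusted p under 0.05, and DESeq2 returned no adjusted p for any of them. The named ones were Oasl2, an antiviral protein, with 5.91 to 7.06 CPM in AAV9-GFP sham and 6.83 to 12.3 CPM in AAV9-Cardinal sham mice, and 11.9, 11.3, 10.3 and 10.7 CPM and 12.5, 7.14, 11.5 and 8.29 CPM after TAC (difference -0.67, 95% interval -1.19 to -0.14), and Irgm1, a GTPase of the same response (-0.45, -0.79 to -0.11). The mean log2 CPM of the list was higher by 0.19 with AAV9-Cardinal than with AAV9-GFP in sham mice, and the same difference was -0.092 after TAC. The levels of both genes overlapped between the TAC groups, and the count of 4 ranged from 2 to 8 with each mouse left out. Markers of lymphocytes, erythroid cells and mast cells gave 10 tested genes, of which none was moved by TAC and none differed at that p, and epicardial, adipocyte, Schwann cell and neutrophil markers gave 7, of which 1 was above 0.

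TAC moved 5 of 56 genes in the ribosomal protein list and 13 of 38 in the translation factor list, beside 3888 of all 16857 tested genes. All 56 cytosolic ribosomal protein genes were tested, and their median responses were 0.00077 with AAV9-GFP and 0.044 in AAV9-Cardinal hearts. A single gene on each side of 0 passed an unadjusted p of 0.05. The gene below 0 was Rpl3, a protein of the large ribosomal subunit, with responses of 0.55 in AAV9-GFP and 0.23 in AAV9-Cardinal hearts and 35.0% of its stretches shared with copies. Of 38 translation factors and members of the pathway of DRG1, the GTPase that the study connects to Cardinal, 1 was below and 3 were above at that p, and 12 of 13 moved responses were kept and 1 was smaller. In the list of the integrated stress response and serine synthesis, 3 of 24 were below 0 and none above. They included Psat1, an enzyme of serine synthesis (difference -0.73, 95% interval -1.34 to -0.12), and Aldh18a1, which begins proline synthesis, with 6.56 to 10.7 CPM in AAV9-GFP TAC and 5.50 to 7.52 CPM in AAV9-Cardinal TAC mice (-0.42, -0.80 to -0.041, exact two-sided permutation p = 0.075). Cell cycle genes gave 3 below and 1 above 0 of 39, with 8 of 9 moved responses undetermined.

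Heat shock and chaperone genes had opposite median responses, -0.15 with AAV9-GFP and 0.28 with AAV9-Cardinal. Of 39 tested, 34 had a difference above 0, 14 at an unadjusted p under 0.05 with 1 below. TAC moved 9 of the 39, beside 3888 of all 16857 tested genes, and DESeq2 called 1 gene each way. Chordc1, which encodes a partner of the chaperone HSP90, was at 37.8, 41.5, 55.9 and 73.3 CPM in AAV9-GFP sham and 31.3, 35.2, 66.6 and 41.3 CPM in AAV9-Cardinal sham mice. After TAC it was at 34.3, 41.3, 38.5 and 41.1 CPM and 61.0, 64.0, 62.0 and 56.9 CPM. The TAC groups did not overlap, the sham mice of both vectors were widely spread, and the difference was 0.91 (95% interval 0.26 to 1.55, DESeq2 adjusted p = 0.047). The same spread made the list unstable, because its 14 genes became 2 without AAV9-Cardinal sham replicate 1 or AAV9-GFP sham replicate 4, 22 without AAV9-Cardinal sham replicate 3, and 5 to 8 without AAV9-Cardinal sham replicate 2, AAV9-Cardinal TAC replicate 4 or 5, or AAV9-GFP TAC replicate 1, 3 or 4. Hspb6, a small heat shock protein of muscle, moved the other way, with 951, 990.2, 1032 and 949.5 CPM in AAV9-GFP TAC and 843, 794, 838 and 855 CPM in AAV9-Cardinal TAC mice and 544 to 640.4 CPM in sham mice (difference -0.25, -0.40 to -0.10, DESeq2 adjusted p = 0.037).

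Antioxidant genes, which detoxify peroxides and electrophiles, were above 0 at an unadjusted p under 0.05 for 9 of 32 (28.1%) and below for 1, and 7 of 14 moved responses were smaller. The 9 became 5 without AAV9-GFP sham replicate 3. Gstm1, a glutathione transferase, had responses of -0.66 in AAV9-GFP and -0.44 in AAV9-Cardinal hearts (difference 0.22, 95% interval 0.048 to 0.39, with 18.9% of its stretches shared with relatives). In the circadian list 1 was below and 1 above of 19. The latter was Per2, a repressor of the clock, at 33.1, 36.2, 44.3 and 39.9 CPM in AAV9-GFP TAC and 59.8, 55.9, 47.6 and 47.6 CPM in AAV9-Cardinal TAC mice, with sham mice at 38.5 to 66.9 CPM (difference 0.64, DESeq2 adjusted p = 0.038). Times of day of collection are not given in the labels. Immediate-early genes and atrogenes gave none at that p among 22 and 20, and atrial markers gave 1 above 0 of 5.

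Some genes with the smallest p lay outside the lists. Efnb3 encodes ephrin-B3, a membrane ligand of Eph receptors. It was at 65.1, 62.4, 66.6 and 64.5 CPM in AAV9-GFP sham and 39.9, 25.0, 35.5 and 29.0 CPM in AAV9-GFP TAC mice, and at 56.7, 56.7, 57.9 and 61.6 CPM and 43.1, 49.8, 56.3 and 53.2 CPM with AAV9-Cardinal. The response was -1.0 in AAV9-GFP and -0.20 in AAV9-Cardinal hearts, a difference of 0.80 (95% interval 0.46 to 1.14, DESeq2 adjusted p = 0.0016). Maob, the monoamine oxidase of the outer mitochondrial membrane, fell to 26.2 to 29.8 CPM with AAV9-GFP and to 33.4 to 44.3 CPM with AAV9-Cardinal, from 51.1 to 60.5 CPM (difference 0.58, DESeq2 adjusted p = 0.0026). Tnni3k, a kinase of cardiomyocytes, differed by 0.41 (DESeq2 adjusted p = 0.012). TAC lowered these 3 genes on average, the responses were smaller with AAV9-Cardinal, and the TAC groups did not overlap. The membrane peptidase gene Lvrn differed by 1.60 (0.98 to 2.22) at 0.755 to 1.71 CPM against 2.35 to 3.81 CPM after TAC, and the predicted gene Gm32369 by 1.49 at no more than 3.89 CPM. Tspyl1, a nucleosome assembly protein relative, was not moved by TAC on average and differed by 0.33 (DESeq2 adjusted p = 0.015).

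The named genes of smallest p below 0 had low counts. Mical1, an actin oxidase, was at 6.10, 6.87, 6.22 and 5.57 CPM in AAV9-GFP sham and 9.86, 9.65, 8.53 and 9.78 CPM in AAV9-GFP TAC mice, and at 8.13, 8.5, 6.77 and 7.33 CPM and 7.39, 6.44, 5.87 and 7.37 CPM with AAV9-Cardinal, a difference of -0.80 (95% interval -1.09 to -0.51). Nmral1, which encodes an NADPH sensor protein, differed by -1.43 at 0.77 to 2.60 CPM, and Dagla, a lipase that makes an endocannabinoid, by -0.82 at 2.30 to 4.49 CPM. The predicted genes Gm47692 (-1.41) and Gm8543 (-1.01) followed Acta1, with which they share sequence, and 21.3% and 27.7% of their stretches lie in other genes. Reads of these genes and of Acta1 cannot be told apart there. TAC did not pass the test of the average effect for 5031434O11Rik (difference -1.08), Scube1 (-1.06), Vsig10 (-0.58) and Ccdc102a (-0.71).

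**Figure D5:**
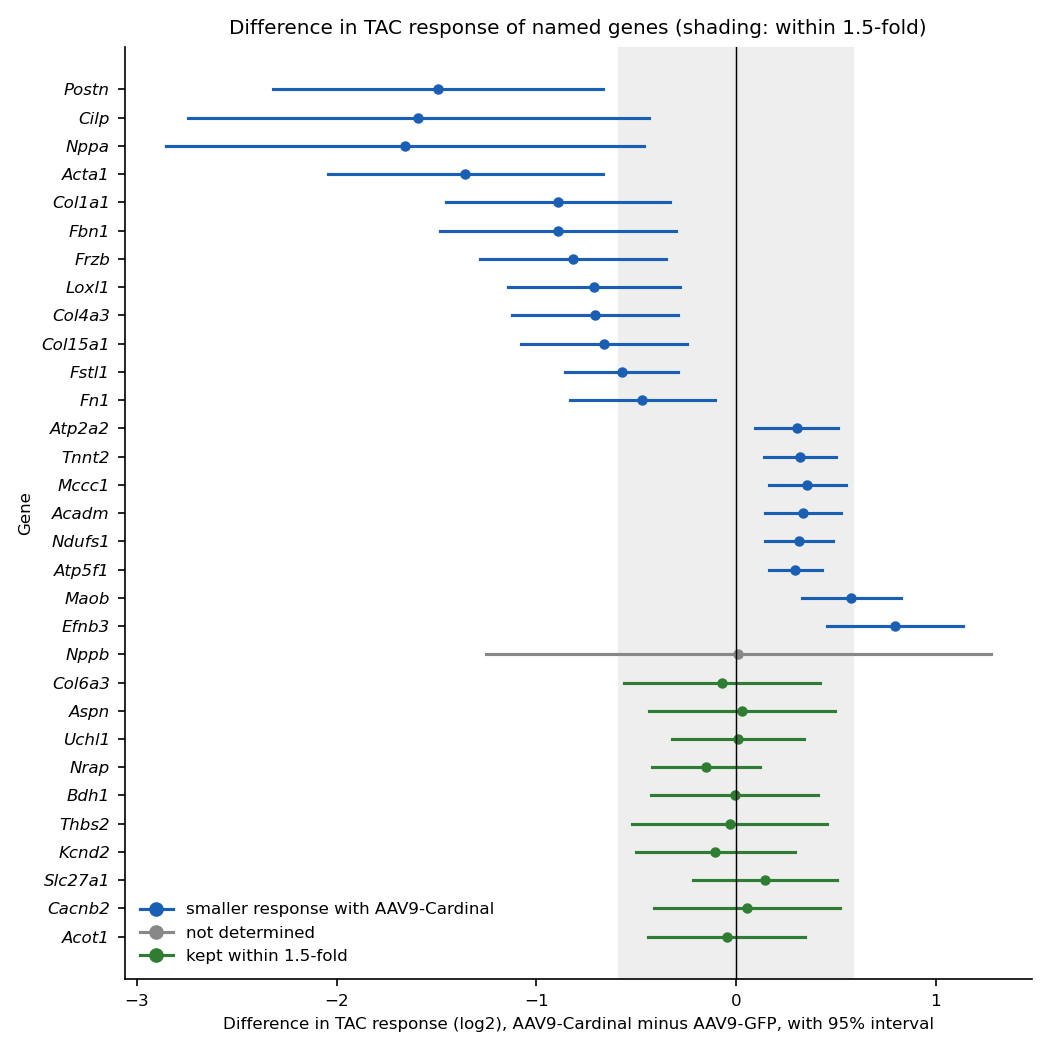
Points are the differences between the TAC responses of 31 named genes on the log2 scale, and lines are their unadjusted 95% intervals, with shading where a difference stays within 1.5-fold. Intervals of Acta1 (-2.04 to -0.67) and Postn (-2.32 to -0.66) lie below 0, that of Nppb (-1.25 to 1.27) spans it widely, and those of Acadm, Mccc1, Ndufs1 and Atp5f1 are narrow and above 0.

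Larger responses with AAV9-Cardinal were rare and fell in no list. Of the 60, TAC raised 26 and lowered 34, and 56 were protein coding. They were 1.54% of the 3888 moved genes and were picked by an unadjusted interval, which chance alone places beyond 0 for some genes. Apart from Gm15459, their edgeR adjusted p was at least 0.30. In 53 of them the response in AAV9-GFP hearts was under 0.2 in size. A difference in the direction of TAC by itself places the AAV9-GFP response below the average effect, so this count describes no kind of response. Fbxo33, which encodes a substrate receptor of a ubiquitin ligase, was at 4.54, 5.52, 4.75 and 5.38 CPM in AAV9-GFP sham and 4.50, 5.03, 4.51 and 4.61 CPM in AAV9-GFP TAC mice. With AAV9-Cardinal it was at 4.25, 3.62, 3.75 and 3.18 CPM in sham and 5.09, 6.06, 5.31 and 5.20 CPM in TAC mice, which did not overlap. Its response was -0.11 in AAV9-GFP and 0.54 in AAV9-Cardinal hearts, a difference of 0.66 (95% interval 0.37 to 0.95). Without AAV9-Cardinal TAC replicate 1 the number of larger responses was 224, and without AAV9-Cardinal TAC replicate 5 it was 29.

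The 2 genes past the adjusted p have limits of different kinds. Gm15459, a processed pseudogene, was at 152, 207, 228 and 328 CPM in AAV9-GFP sham, 118, 199.96, 206 and 105 CPM in AAV9-GFP TAC, 37.6, 32.6, 57.8 and 39.3 CPM in AAV9-Cardinal sham and 152, 296, 306 and 305 CPM in AAV9-Cardinal TAC mice. Every TAC mouse was above every sham mouse with AAV9-Cardinal, and sham and TAC overlapped with AAV9-GFP, with a difference of 3.20 (95% interval 2.34 to 4.06, edgeR adjusted p = 0.0098, DESeq2 adjusted p = 8.3e-10). Of its 50-base stretches 98.8% lie in 13 other genes, so the reads cannot be placed. Bub1b, a kinase of the spindle checkpoint, had no read at all in AAV9-GFP sham mice (0 counts in 4 of 4) and was at 1.46, 1.43, 1.84 and 1.30 CPM in AAV9-GFP TAC, 1.04, 0.883, 1.39 and 0.649 CPM in AAV9-Cardinal sham and 0.929, 0.846, 1.40 and 0.875 CPM in AAV9-Cardinal TAC mice. AAV9-GFP TAC was thus at least 10.2-fold higher than sham, against the floor of 3 counts in 1 mouse, and the AAV9-Cardinal groups overlapped. The fitted difference of -8.01 (edgeR adjusted p = 9.9e-04) depends on how the counts of 0 are smoothed and is no bound, and DESeq2 returned no adjusted p. Bub1b shares no 50-base stretch with another gene, and it passed the adjusted p in all 16 fits that left out 1 mouse.

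Cardinal itself (Gm12295, ENSMUSG00000085162, on chromosome 11) did not respond to TAC in a way that these mice could resolve. In AAV9-Cardinal mice it was at 40.0, 30.2, 26.2 and 27.6 CPM in sham and 93.9, 18.3, 19.5 and 20.6 CPM in TAC hearts, and in AAV9-GFP mice at 3.42 to 5.93 and 3.59 to 7.24 CPM. The exact two-sided permutation p was 0.96, for a difference of -0.090 in mean log2 CPM. Exchanging the vector labels there mixes mice with and without the Cardinal vector, whose levels lay far apart, so that test cannot decide. The fitted difference was 0.26 (95% interval -1.19 to 1.72) and -0.71 without AAV9-Cardinal TAC replicate 1. In this mouse, which had the most Cardinal, the values of Postn, Col1a1, Fbn1, Tnnt2 and Acadm lay nearest to, or within, the AAV9-GFP TAC range, an observation made after the values were seen.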

How the data were processed

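Heart apex RNA of 16 mice (4 in each of 4 groups) was sequenced, and the deposited table holds unnormalized counts of reads on Ensembl genes, 1 column a mouse, as the authors made it. The submitters' processing notes name FastQC, HISAT2 2.1.0, edgeR 3.26.1 and the build GRCm38. The counting program, its use of strand and its treatment of reads with several matches are not given in the sources used here. Of 55573 genes, 93 had no name in GENCODE M21, and 0 columns were left unused. Totals lay between 16441997 and 21904589 counts with a median of 21723766.

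Counts were normalized with TMM and fitted in R 4.3.3 with edgeR 4.0.16 (quasi-likelihood, all 16 mice, 16857 genes after its expression filter). The contrast was (AAV9-Cardinal TAC minus AAV9-Cardinal sham) minus (AAV9-GFP TAC minus AAV9-GFP sham), and adjusted p-values (Benjamini-Hochberg) were called under 0.05. The common coefficient of variation between mice was 0.128. Standard errors and 95% intervals came from the same fit and were not adjusted. A list's mean log2 CPM used a prior count of 2. The exact two-sided permutation test exchanged the vector labels within sham and within TAC mice (4900 labelings, smallest p 0.000408). A gene's shared stretches are the 50-base stretches of its transcripts that also occur in transcripts of other genes. Promoters came from RefSeq on GRCm38.p6. The method was tested on simulated data. Plots were made with Python 3.11.15 and matplotlib 3.10.9.

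The 38 gene lists, the genes and the tests were chosen with earlier results of these data known. Genes were named where the study names them for hearts, where they passed the adjusted p, where they were among the 10 with the smallest p in each direction at a group mean of at least 1 CPM, where they were among the 2 with the smallest p in a list, or where they were among the 10 list members with the largest average TAC effect and a kept response. For some lists without a resolved difference only counts are given, and some genes that met these rules are not reported here. Myh7, Meox1 and Mfap5 were named after their values were seen. Mice of the same group differed by more than sampling noise (chi-square per degree of freedom 5.10 to 14.9), so each counted as a sample. Alternatives were DESeq2 1.42.0 and its size factors, voom with quality weights (limma 3.58.1), other filters, a robust spread, mitochondrially encoded genes left out, a replicate block, a GC offset, a 2-fold limit for kept responses, and each mouse left out in turn.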

Additional observations from a re-analysis of the deposited data

Results flagged for a closer look

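In groups of 4 mice, a single mouse was taken as far from the rest where its gap to the nearest mouse took up more of the group's range than the 95% critical value of Dixon's test allows, which chance gives in about 1 in 20 groups. This was so for 36 of 496 groups, 27 of 336 for single genes and 9 of 160 for mean log2 CPM of lists.

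AAV9-Cardinal TAC replicate 1 was that mouse most often. For matrix genes it was the high one, with 115 CPM of Postn (nearest mouse 51.2), 23.1 CPM of Cilp (8.15), 95.5 CPM of Col1a1 (52.4) and 56.6 CPM of Fn1 (41.5), and it also had 9.73 CPM of Cd68 (4.84) and 93.9 CPM of Cardinal (20.6). For genes of muscle and metabolism it was the low one, with 4123 CPM of Tnnt2 (4793), 68.4 CPM of Mccc1 (79.7), 314 CPM of Atp5h (355) and 4.91 for the PGC-1, PPAR and ERR regulators in mean log2 CPM (5.07). Gm15459 was at 152 CPM in it (296). What sets this mouse apart was not tested.

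AAV9-GFP TAC replicate 3 was high for Frzb (8.43 CPM, nearest 6.39), Cdh5 (179.6 CPM, nearest 155) and the elastic fiber list (mean log2 CPM 4.59, nearest 4.35). It was low for Mccc1 (56.7 CPM), Ccl11 (0.713 CPM), Cd59a (38.8 CPM), the fatty acid list (7.13, nearest 7.30) and the branched-chain amino acid list (5.89, nearest 6.04). In the same group, replicate 4 stood apart for Atp5f1 (443 CPM), Mical1 (8.53 CPM) and Ccdc102a (3.06 CPM), and replicate 7 for Nrap (828 CPM).

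Among the other AAV9-Cardinal mice, TAC replicate 5 stood apart for Bub1b (1.40 CPM) and the translation factor list (6.26), and TAC replicate 4 for the antioxidant list (5.53). Sham replicate 4 did so for Col1a1 (45.3 CPM), Ccl11 (5.45 CPM), Tspyl1 (45.7 CPM) and the fatty acid list (7.73), and sham replicate 1 for Klf15 (41.5 CPM). In AAV9-GFP sham mice, replicate 1 stood apart for Tpm1 (5900.3 CPM), Psat1 (1.61 CPM) and the collagen list (3.95), replicate 3 for Atp5h (411 CPM) and replicate 4 for the glycolysis and TCA list (8.32).

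The TAC responses of Bub1b and Gm15459 differed between the vectors in the test of that difference, by -8.01 and 3.20 on the log2 scale, with the limits on their counts given above.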

How the results depend on the processing

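Over 9 alternatives of fitting and each mouse left out in turn, the median differences of the matrix lists together and of the energy metabolism lists together kept their direction, from -0.42 to -0.23 and from 0.15 to 0.24. The number of genes past the adjusted p was 2, and it was 133 with DESeq2, 3 with voom and quality weights, 1 with a mean of at least 1 CPM and 1 with the replicate block. With each mouse left out it was 2 to 79, the latter without AAV9-Cardinal TAC replicate 1. Genes below 0 at an unadjusted p under 0.05 numbered 655 to 1400 with each mouse left out, against 878. Larger responses numbered 148 with voom and quality weights, 31 with the replicate block and 29 to 224 with each mouse left out, against 60. Deviations of same-numbered mice from their groups correlated from -0.040 to 0.21 over 16 pairs (median 0.054, against -0.013 for other pairs). The 4 pairs over 0.1 were all among mice numbered 1, and AAV9-Cardinal sham replicate 2 correlated more with AAV9-GFP sham replicate 1 (0.22) than with replicate 2 (-0.040), so the numbers were not taken to pair the mice. With mouse number as a replicate block, which removes mice whose number occurs once from the comparison, 304 responses were smaller, 1042 kept and 642 undetermined, and Bub1b was no longer called (adjusted p = 0.28). The block moved the median difference of calcium handling genes to 0.10, collagen maturation genes to -0.042, macrophage markers to -0.087, chemokines and cytokines to 0.16, complement genes to 0.075 and branched-chain amino acid catabolism to 0.19. With a limit of 2-fold, 474 responses were undetermined. The median difference of atrial markers was 0.47 with voom and quality weights, and that of chemokines and cytokines 0.16 with no filter and 0.15 with a mean of at least 1 CPM. The GC offset gave 0.071 for mitochondrially encoded genes and 0.038 for translation factors and shifted the median of all genes to 0.025. With each mouse left out, medians ranged from -0.26 to 0.019 for metalloproteinases, from -0.79 to -0.46 for collagens, from 0.095 to 0.21 for calcium handling, from -0.066 to 0.046 for mural markers, from -0.11 to 0.15 for ion channels, from -0.40 to -0.074 for fibroblast markers, from -0.012 to 0.036 for translation factors and from -0.037 to 0.13 for clock genes. The difference of Cardinal (Gm12295) was -0.30 with voom and quality weights, -0.090 in mean log2 CPM, and -0.71 to 0.52 with each mouse left out. That of Nppb was -0.16 with voom and quality weights, -0.094 in mean log2 CPM, and -0.53 to 0.29 with each mouse left out, and that of Myh7 was 0.026 with the GC offset. The exact permutation test was run on 84 genes, and for 67 of them the interval excluded 0. Its p was over 0.05 for 4 of these 67 (Fn1, Loxl2, Klf15 and Aldh18a1). Many of these genes were named for a small p of the same difference in the same mice, so the permutation is no separate check. The causes of these changes were not tested. With 4 mice a group, small differences in genes of few counts and responses of variable genes such as Nppb could not be resolved.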
